A study of Mus musculus with 20 samples.

Results

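The comparison of uninjured (naive) spinal cord between GFAP-IkappaBalpha-dn transgenic mice (TG) and wild-type littermates (WT) rested on 3 of the 20 two-colour oligonucleotide arrays of the series, those whose titles pair a TGn with a WTn animal. Each of the 3 arrays held 1 TG and 1 WT cord, so 3 TG and 3 WT animals were compared, and no animal was on more than 1 of these arrays. The mice were female and on a C57BL/6 background, with an age of 60 days in the sample labels and a range of 2 to 4 months in the design text. TG mice came from heterozygous transgenic males bred with WT females and carry a dominant negative IkappaBalpha, an inhibitor of NF-kappaB, under the promoter of Gfap, a gene of astrocytes. On arrays 1 and 3 the TG cord was in the Cy5 channel, and on array 2 the dyes were swapped. The sources used here do not state the direction of the deposited ratio, which was read as TG over WT on each array. On the 6 arrays within a genotype it was read as EAE over naive, WT at 17 over 80 days and TG at 80 over 17 days. These directions were chosen with earlier results of these data known and are working directions, and values under the other reading, Cy5 over Cy3, are given with the dye swap. The other 17 arrays held cords of mice with experimental autoimmune encephalomyelitis (EAE), induced with a MOG peptide, at 10, 17 or 80 days. They entered only through the shared fit and as the background for the naive values, and 4 of them joined a naive animal to an EAE animal of its own genotype.

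NF-kappaB is a family of dimeric transcription factors that IkappaB proteins hold in the cytoplasm until the IkappaB kinase complex marks them for degradation. A dominant negative IkappaBalpha is not degraded on stimulation and keeps the dimers inactive. Known targets of the factor include its own inhibitors, chemokines, cytokines and adhesion molecules, many of which rise in inflammation. The whole cord was measured, so RNA from astrocytes was mixed with that of neurons, oligodendrocytes, microglia and vessels, and fewer cells of a type and less RNA per cell cannot be told apart. The deposited log ratios carry no signal level, so the presence of a cell type's defining markers could not be read from them.

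In naive cord no probe differed between TG and WT at an adjusted p under 0.05. Of 43791 probes tested, 0 were higher and 0 lower (0% called), and 467 probes (1.07%) had an unadjusted p under 0.05 (limma moderated statistics with Benjamini-Hochberg adjustment over all probes, smallest adjusted p = 0.356). The fitted TG minus WT differences were small, with a median of 0.00 and a range from -0.15 to 0.24 between the 5th and 95th percentiles on the log2 scale, and a median standard error of 0.11. The 95% interval of the difference lay within 1 log2 unit of 0 for 40496 probes (92.5%), and within 0.5 for 33373 probes (76.2%). The largest fitted difference among named genes that had 1 sign on all 3 arrays and an unadjusted p under 0.05 was that of Tmem241, at -1.53 (95% interval -2.76 to -0.30), and it rested mainly on array 2. The error behind these p-values was pooled over all 20 arrays, most of them of EAE animals. Its median SE of 0.108 became 0.0508 with naive and 80-day arrays only, and 0.0492 with the naive arrays alone. A difference smaller than the interval of a probe was not detectable.

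The promoters of genes under direct NF-kappaB control are shown first. The ratios carry no signal level, so how strongly these genes were expressed in resting cord could not be read. A value near 0 therefore cannot tell whether the block reached them. The 250 bases before the transcription start of 4 such genes, from RefSeq on GRCm38.p6, are printed 5′ to 3′ in the direction of the gene, with each match to the degenerate kappaB consensus motif, searched on both strands, in capitals. Nfkbia lies on the minus strand at chr12:55492648-55492897, and the plus-strand windows are chr5:90890995-90891244 for Cxcl1, chr5:90903649-90903898 for Cxcl2 and chr5:30012864-30013113 for Il6.
Nfkbia: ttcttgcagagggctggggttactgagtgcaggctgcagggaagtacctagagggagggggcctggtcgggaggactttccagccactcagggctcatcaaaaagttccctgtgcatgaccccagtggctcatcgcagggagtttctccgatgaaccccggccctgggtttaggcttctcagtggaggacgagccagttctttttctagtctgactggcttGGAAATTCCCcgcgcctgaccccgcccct
Cxcl1: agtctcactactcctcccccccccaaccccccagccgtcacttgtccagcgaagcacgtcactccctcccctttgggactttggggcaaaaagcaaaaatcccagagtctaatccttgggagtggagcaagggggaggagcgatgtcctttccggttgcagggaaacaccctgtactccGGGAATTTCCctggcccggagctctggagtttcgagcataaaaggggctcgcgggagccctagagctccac
Cxcl2: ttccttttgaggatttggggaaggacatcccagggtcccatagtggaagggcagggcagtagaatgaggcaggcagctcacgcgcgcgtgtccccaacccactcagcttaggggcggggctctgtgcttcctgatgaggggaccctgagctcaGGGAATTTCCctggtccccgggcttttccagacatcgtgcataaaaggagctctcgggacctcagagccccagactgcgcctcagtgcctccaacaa
Il6: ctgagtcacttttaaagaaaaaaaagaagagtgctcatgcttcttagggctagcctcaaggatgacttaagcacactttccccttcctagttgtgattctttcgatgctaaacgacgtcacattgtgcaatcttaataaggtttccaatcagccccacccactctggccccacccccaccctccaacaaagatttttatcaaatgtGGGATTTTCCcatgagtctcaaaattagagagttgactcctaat
The motif was found in 1643 of 32851 promoter windows of this length (5.00%), and in those of 22 of the 73 measured genes with a window in 4 lists (NF-kappaB proteins, feedback targets, chemokines and cytokines). A match is a description of the letters and not of binding. Of all 1023 tested genes with a match, 0 were called between TG and WT and their median difference was 0.00, as it was over the 15306 tested genes with a window. Among the 22 list genes with a match, the median was 0.04, and the fitted differences ran from -0.08 for the chemokine Ccl20 to 0.31 for Nfkbia. Of the 4 genes printed, Cxcl1 was at 0.17 (95% interval -0.48 to 0.81), Cxcl2 at -0.01 (-0.25 to 0.24) and Il6 at 0.15 (-0.31 to 0.62).

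The 2 genes named in the construct came first. Nfkbia encodes IkappaBalpha, and its single probe read 0.06, 0.47 and -0.04 (log2 TG over WT, as deposited) on arrays 1, 2 and 3. The value on array 2 was the high one and the other two were near 0. The fitted difference was 0.31 ± 0.31 (SE), with an interval from -0.35 to 0.97. Whether this probe detects the transgene transcript cannot be told from the files, so its value does not check the labels. Gfap, the intermediate filament protein of astrocytes, had 3 probes, and their fitted differences were 0.03 ± 0.21, 0.00 ± 0.27 and 0.10 ± 0.16 (SE). The third of these read -0.30, 0.98 and -0.32 as deposited, high on the dye-swapped array and low on both others.

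No gene of the NF-kappaB machinery was called, and their intervals were of unequal width. Of 19 measured subunits, inhibitors and kinases, 0 had an unadjusted p under 0.05, and their median difference was 0.10, against 0.00 over all probes. That median lay above those of arrays 1, 2 and 3 after the dye effect, which were -0.01, 0.06 and -0.04. With the naive arrays fitted alone it was 0.02. Rela, the subunit p65, was at 0.00 (interval -0.15 to 0.15) and read -0.02, -0.08 and 0.03 on the 3 arrays, so that no array moved it by as much as 0.1. Ikbkb, the catalytic kinase IKKbeta, was at 0.02 (-0.15 to 0.19), and Cyld, a deubiquitinase that limits the pathway, at -0.04 (-0.14 to 0.07). The least precise were the inhibitor Nfkbie, at 0.24 ± 0.59 (SE), and Nfkbil1, with an interval from -0.62 to 1.27. Nfkbiz, a nuclear inhibitor protein induced by inflammatory signals, had the highest value at 0.33 (-0.03 to 0.69), with 0.62, 0.08 and -0.07 on the 3 arrays after the dye effect was removed. That value rested on array 1.

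Receptors and adaptors that feed the pathway were also near 0, with all 18 measured members inside 1 log2 unit. The TNF receptor Tnfrsf1a was at 0.05 (-0.58 to 0.67), the interleukin 1 receptor Il1r1 at 0.02 (-0.31 to 0.36), Tlr4 at 0.06 (-0.22 to 0.33) and Cd40 at 0.19 (-0.32 to 0.70). Among 26 feedback targets, 0 passed either threshold and all intervals lay within 1. Tnfaip3, which encodes the deubiquitinase A20, was at -0.03 (-0.26 to 0.21), the adhesion molecules Icam1 and Vcam1 at 0.05 (-0.31 to 0.40) and 0.07 (-0.20 to 0.34), and the protease Plau at 0.00 (-0.14 to 0.14). The extremes of this list were Tnip1, a partner of A20, at 0.28 (-0.22 to 0.78) and the cytokine Csf2 at -0.16 (-0.82 to 0.49).

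**Figure D1:**
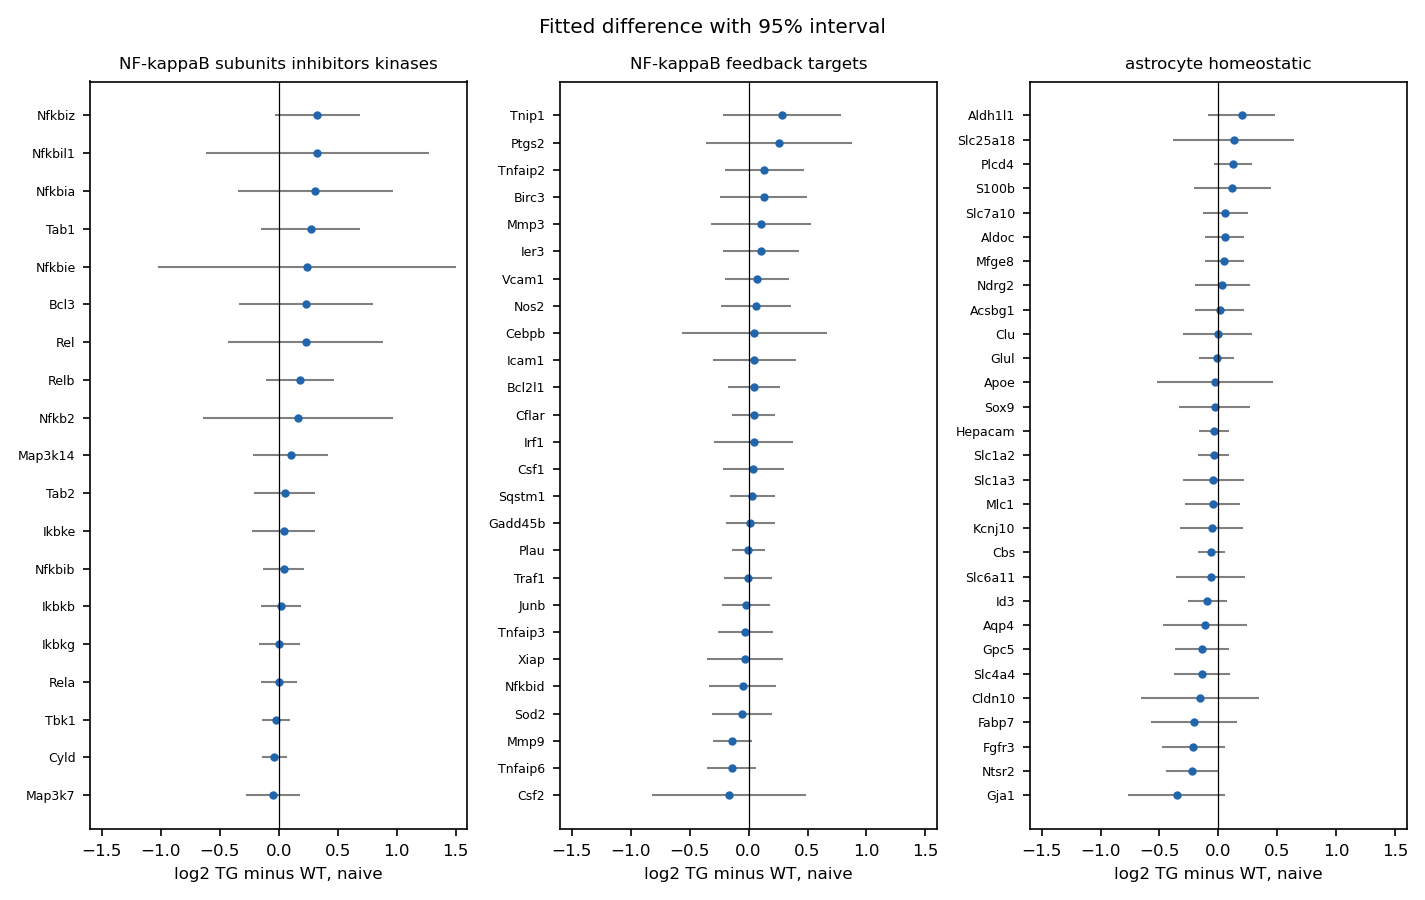
Fitted TG minus WT difference in naive cord (x axis, log2, dots) with its 95% interval (bars) for the measured genes of 3 lists, one row per gene. Every interval except that of Ntsr2 includes 0, and the widest is that of Nfkbie, fitted at 0.24 ± 0.59 (SE).

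Chemokines and cytokines were not called either, but several had wide intervals. Of 26 chemokines, 23 had an interval within 1 and 12 within 0.5. Ccl2, a chemoattractant of monocytes, read -0.02, 0.12 and 0.05 as deposited and was fitted at 0.07 (-0.80 to 0.94). Cxcl10, which attracts T cells, was fitted at 0.24 with an interval from -1.26 to 1.75, the widest of the list. Cxcl12, a chemokine of resting tissue, was measured more closely at -0.05 (-0.21 to 0.11). Of 22 cytokines, Tnf was at 0.02 (-0.18 to 0.22), Il6 at 0.15 (-0.31 to 0.62), and Il1b at 0.26 (-0.76 to 1.27).

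No gene of astrocytes themselves was called. Of 29 measured homeostatic astrocyte genes, all had an interval within 1 and 24 within 0.5, and the list median was -0.04. The glutamate transporter Slc1a2 was at -0.04 (-0.17 to 0.09), and its deposited values of 0.23, -0.21 and 0.25 fell to -0.03, 0.06 and -0.02 once the dye effect was removed. Slc1a3, the other glial glutamate transporter, was at -0.04 (-0.30 to 0.21), the water channel Aqp4 at -0.12 (-0.47 to 0.24) and the folate enzyme Aldh1l1 at 0.20 (-0.09 to 0.48). Gja1, the gap junction protein connexin 43, was lowest at -0.35 (-0.77 to 0.06), with -0.16, -0.22 and -0.38 on the 3 arrays after the dye effect. The neurotensin receptor Ntsr2 was the only member with an unadjusted p under 0.05, at -0.23, beside 1.07% of all probes with such a p. Its limma p was 0.0461 before adjustment and 1.00 after adjustment over all probes. Of 32 genes raised in reactive astrocytes, 0 had an unadjusted p under 0.05, and 25 had an interval within 1. Vim, an intermediate filament protein, was at 0.06 (-0.22 to 0.33), Nes at 0.10 (-0.40 to 0.61) and Lcn2, a secreted iron-siderophore binder, at -0.35 (-1.12 to 0.42).

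Microglial and immune genes had medians near 0. The 18 homeostatic microglial genes had a median of 0.00, with Tmem119 at 0.16 (-0.27 to 0.59), P2ry12 at -0.27 (-0.88 to 0.34) and Cx3cr1 at -0.03 (-0.29 to 0.23). Of 38 macrophage and phagocyte genes, 0 had an unadjusted p under 0.05, and 33 had an interval within 1. The 11 MHC class II genes, which present antigen, had a median of -0.01. H2-Aa was lowest at -0.17 (-0.96 to 0.61), H2-Ab1 was at -0.13 (-0.85 to 0.59) and H2-DMb1 was highest at 0.22. The median of 34 interferon response genes was 0.10, with 10 intervals within 0.5. On arrays 1, 2 and 3 after the dye effect it was -0.09, 0.10 and -0.08, and with the naive arrays fitted alone 0.02. The 23 T cell genes had a median of 0.01, and 1 had an unadjusted p under 0.05, beside 1.07% of all probes. This was Ctla4, an inhibitory receptor and the lowest member, at -0.19 (-0.36 to -0.02) with an unadjusted limma p of 0.0285. Cd3e was at -0.12 (-0.28 to 0.05), and Lat was highest at 0.23 (-0.75 to 1.21). Neutrophil genes had the highest list median, 0.11, which was 0.03 with the naive arrays fitted alone. They ran from Lcn2 at -0.35 to Camp at 0.48 (-0.28 to 1.25), with S100a8 at 0.26 (-0.46 to 0.97).

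No gene of neurons or vessels was called. Of 29 general neuronal genes, Snap25, a protein of synaptic vesicle fusion, was at -0.19 (-0.59 to 0.22), Ncam1 at -0.01 (-0.11 to 0.10) and Rbfox3, which encodes NeuN, at 0.18 (-0.05 to 0.42). Vsnl1, a neuronal calcium sensor, was the lowest of the neuronal list at -0.81, also uncalled in this fit, and is described with its chromosomal neighbours. Chat, the enzyme of acetylcholine synthesis in motor neurons, was at 0.09 (-0.14 to 0.33). The tight junction gene Cldn5 of endothelium was at -0.02 (-0.33 to 0.30), and the endothelial list ran from Cdh5 at -0.22 to Esam at 0.11. All 36 ribosomal protein genes had an interval within 0.5. Skeletal muscle genes were the least certain, with 9 of 18 intervals within 1 and Myl1, a myosin light chain, at -0.73 (-1.95 to 0.50), which rested on a value of -1.59 on array 1.

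Myelin genes had the lowest list median. It was -0.13 over 23 measured genes, against 0.00 over all probes. None was called, and 4 of the 23 had an unadjusted p under 0.05, all lower in TG, beside 1.07% of all probes. Mal, a proteolipid of compact myelin, was at -0.41 (-0.78 to -0.05) by its most precise probe, with -0.27, -0.32 and -0.27 on the 3 arrays after the dye effect. The fitted value lay below all 3 of these. A second Mal probe gave -0.49. Cldn11, the tight junction protein of myelin, was at -0.37 (-0.73 to -0.02) and below 0 on all 3 arrays, also as deposited, at -0.45, -0.28 and -0.58. The other two with that p were Tspan2 at -0.22 and Fa2h at -0.23, the latter with -0.73 on array 2 and near 0 on the others. Mbp, the basic protein of myelin, was at 0.00 (-0.13 to 0.13), and Mog, whose peptide induces the disease, at -0.37 (-0.89 to 0.16). With the naive arrays fitted alone the list median was -0.01.

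With the 3 naive arrays fitted alone, 126 probes (0.288%) were called, 112 higher and 14 lower in TG, led by Eef2, Ncdn and Ndel1. Eef2, a translation elongation factor, read -0.15, 3.28 and -0.06 as deposited, high on array 2 only. Ncdn read 0.17, 2.21 and 0.20, and Ndel1 -0.14, 2.47 and -0.21. In that fit 1 residual degree of freedom remains, and it comes from arrays 1 and 3, so the spread of array 2 has no part in the error. Only 3 of these probes were also called when arrays were weighted.

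**Figure D2:**
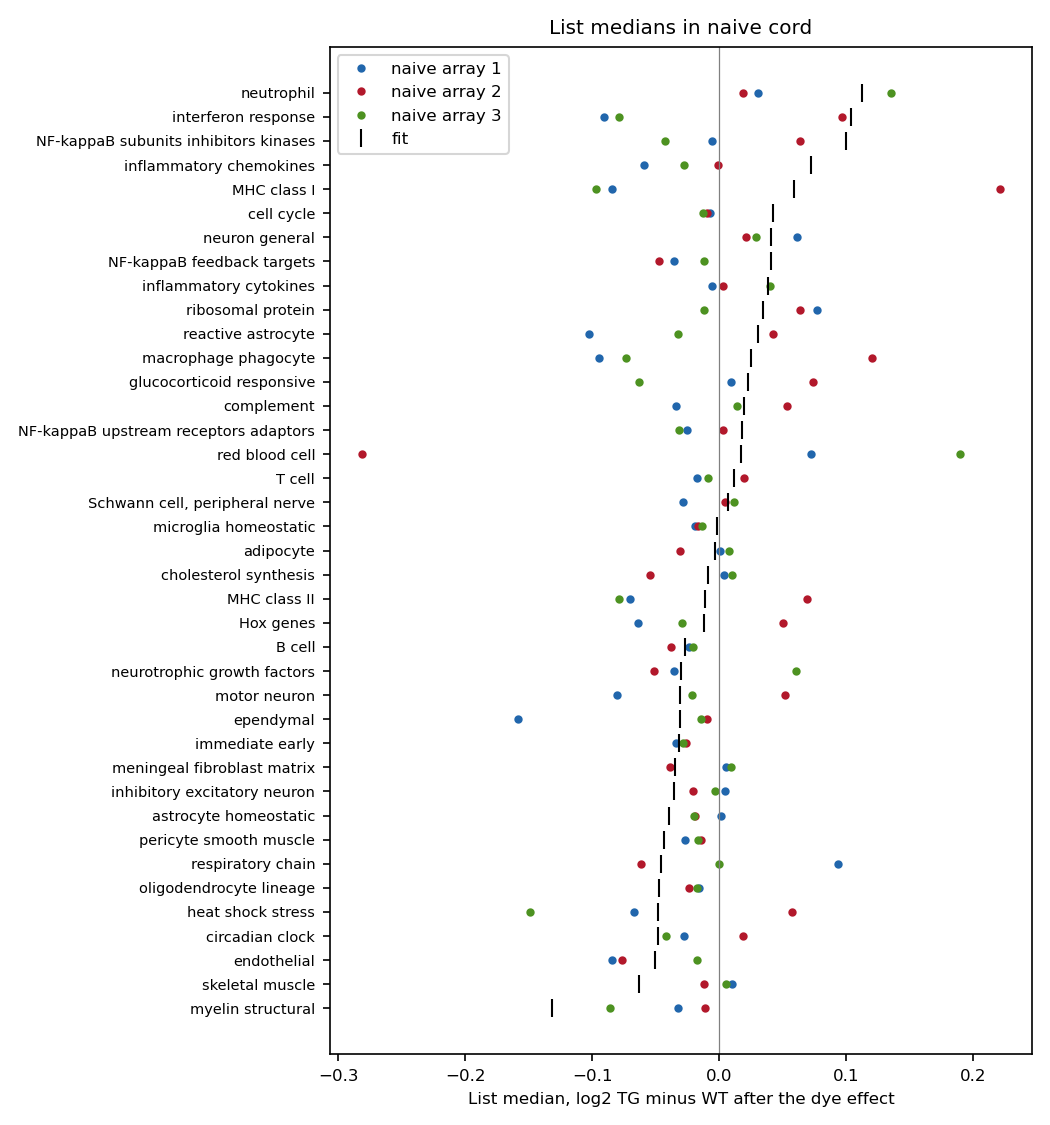
Median TG minus WT difference (x axis, log2) of each of 39 gene lists on each naive array after the dye effect (coloured dots) and in the fit over 20 arrays (black bars). Fitted medians run from -0.13 for myelin genes to 0.11 for neutrophil genes. The dots of red blood cell and MHC class I genes spread furthest, and dots and bar differ where linking arrays to EAE animals carry part of the fit.

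Over the 39 lists, 765 genes were measured, of which 0 were called, 11 had an unadjusted p under 0.05, and 726 (94.9%) had an interval within 1 log2 unit. Intervals were within 0.5 for 553 genes (72.3%), beside 76.2% of all probes.

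Read as TG over WT, the naive arrays disagreed over the dye swap. The deposited values of arrays 1 and 3, of the same dye order, correlated at r = 0.77 across probes, while array 2 correlated at r = -0.70 with array 1 and r = -0.75 with array 3. Probes are not independent replicates, and the arrays share probe sequence and dye chemistry, so these values describe the arrays. After removal of the dye effect fitted over all 20 arrays, the correlations were 0.48, -0.42 and -0.52, and with a dye effect taken from the other 17 arrays alone they were 0.68, -0.61 and -0.68. Of 43757 probes with all 3 values, 4625 (10.6%) had 1 sign on the 3 arrays as deposited and 8879 (20.3%) after the dye effect. Read as Cy5 over Cy3, with no dye effect removed, 31363 (71.7%) did.

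**Figure D3:**
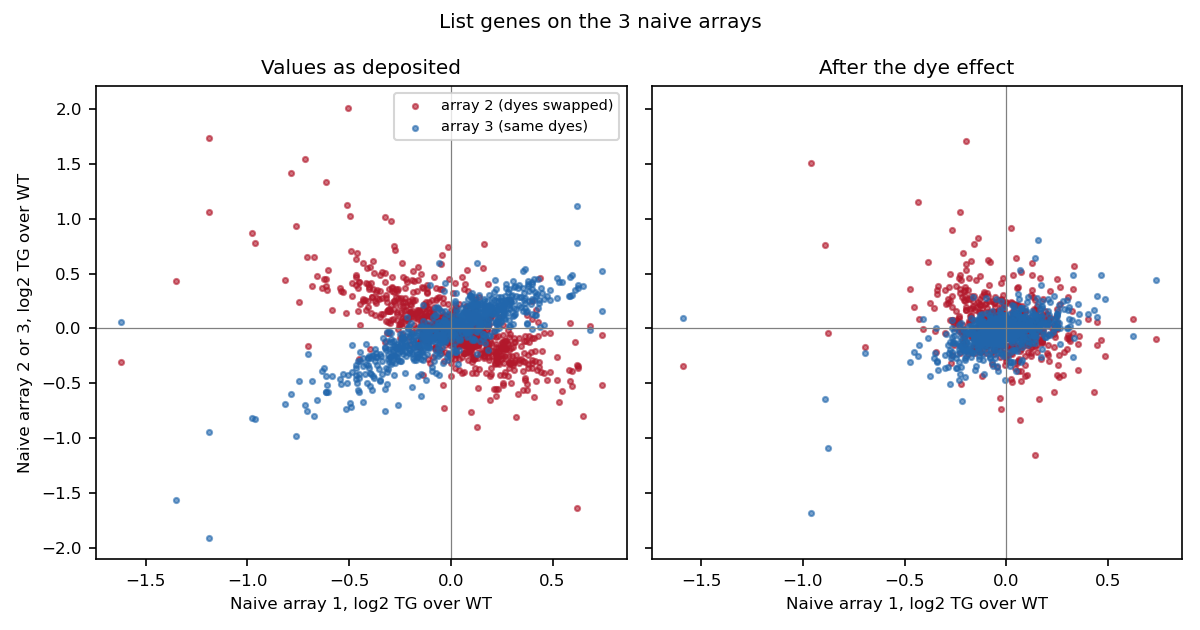
Log2 TG over WT of the measured list genes on naive array 1 (x axis) against array 2 (red, dyes swapped) and array 3 (blue, same dyes), as deposited (left) and after the dye effect (right). The red and blue clouds slope in opposite directions on the left, and both narrow on the right.

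All values above read the deposited ratio as TG over WT. Zfp982, a zinc finger gene, read -2.37, 2.30 and -2.42 on the 3 naive arrays. It was named for 1 of the lowest dye effects in a fit that includes these arrays, so its change of sign follows from that choice. Read as Cy5 over Cy3, the value of array 2 changes sign and Zfp982 is low in TG on all 3 arrays. A set of 3 arrays within TG animals forms a loop in which group differences cancel, and its sum, the same under both readings, correlated across probes with naive arrays 1, 2 and 3 at r = 0.44, -0.45 and 0.51. The loop within WT animals, whose signs depend on the reading, gave 0.33, -0.27 and 0.34 in the reading used and 0.16, -0.21 and 0.12 read as Cy5 over Cy3. Both loops hold naive animals that are also on arrays 1 and 3, and none of array 2. If the ratio is instead read as Cy5 over Cy3, 3808 probes (8.7%) differ in naive cord (1565 higher and 2243 lower in TG), the naive medians of macrophage and interferon response genes become -0.46 and -0.35, and the count that differs from naive cord at 17 days falls to 0. The counts of calls and of genes near 0 therefore hold for the TG over WT reading only.

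Neighbouring genes on chromosome 12 stood out among the uncalled probes. When arrays were weighted by their fit, 251 probes (0.573%) were called, 169 higher and 82 lower in TG, and 5 of the 10 with the smallest p belonged to genes that follow each other on this chromosome. The region was chosen after its values were seen, so what follows is a description. It holds the 8 protein-coding genes from Smc6 to Lratd1 in the RefSeq order of GRCm38.p6, of which 7 had probes, 14 in all. In the fit without weights, 0 of the 14 were called and 7 had an unadjusted p under 0.05. Of 37 probes of 19 measured genes among the 10 on each side, 1 had such a p. With weights, 8 of the 14 probes and 0 of the 37 were called, and read as Cy5 over Cy3, 1 of the 14 and 3 of the 37. With the naive arrays fitted alone, 0 of the 14 and 0 of the 37 were called.

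The differences ran in both directions within the region. Vsnl1 read -1.35, 0.43 and -1.56 as deposited on one probe and -1.25, 0.33 and -1.07 on the other, low in TG on arrays 1 and 3 only. Its fitted differences were -0.81 ± 0.19 and -0.80 ± 0.20 (SE), and with the naive arrays fitted alone they were -0.51 and -0.42. Read as Cy5 over Cy3, the value of array 2 changes sign, both probes are low on all 3 arrays, and the first is called, at -0.93 with a limma adjusted p of 0.00859. Smc6, a component of a complex for chromosome maintenance, was at -0.63 ± 0.17 on one probe, and at -0.21 and 0.03 on the others. Lratd1 was higher in TG, at 0.51 ± 0.14 and 0.55 ± 0.15 on its probes, with 0.85, -0.25 and 0.65 as deposited on the first. With the naive arrays fitted alone the Lratd1 probes were at 0.25 and 0.27, and the lowest Smc6 probe was at -0.36. Ddx1, an RNA helicase, was at 0.49 ± 0.18 on one probe and 0.07 ± 0.17 on the other, and Cyria was at 0.54 ± 0.21. Nbas was at 0.22 ± 0.11 on one probe and at 0.92 ± 0.51 on the other, the highest value of the region. The latter rested on array 3, with 0.38, 0.16 and 1.95 on the 3 arrays after the dye effect. Mycn, between Cyria and Ddx1, was at -0.04 and 0.00. After the dye effect array 2 lay near 0 for Vsnl1, at 0.05 and -0.05, and for Lratd1, at -0.13 and -0.14.

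The fitted differences at the EAE times had the same signs for some of these genes. Lratd1 was higher in TG at 10 days (0.93 and 0.97, both adjusted p = 0.0423), at 17 days (1.77 and 2.02) and at 80 days (0.72 and 0.89, adjusted p = 0.00684 and 0.00179), beside 0.0137%, 4.65% and 0.231% of all probes called higher at these times. The Smc6 probe with the lowest naive value was at -1.09, -1.05 and -0.73, with adjusted p of 0.0423, 0.00107 and 0.0221, beside 0.0137%, 8.51% and 1.47% called lower. A second Smc6 probe was called at 17 days only (-0.66, adjusted p = 0.0341). Of the 14 probes, 3 were called at 10 days, 6 at 17 days and 3 at 80 days, beside 0, 8 and 0 of the 37 on either side. Vsnl1 was called at 17 days by 1 of its probes (-0.66, adjusted p = 0.0345), while the other was at 0.02. The EAE cords came from other animals, but the naive and EAE comparisons shared 1 fit and its dye effect. Arrays joining naive cords to 17-day and 80-day cords also carried part of the fitted values. The values at 17 and 80 days are therefore not separate from those in naive cord. The arrays at 10 days shared no animal with the naive arrays.

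**Figure D4:**
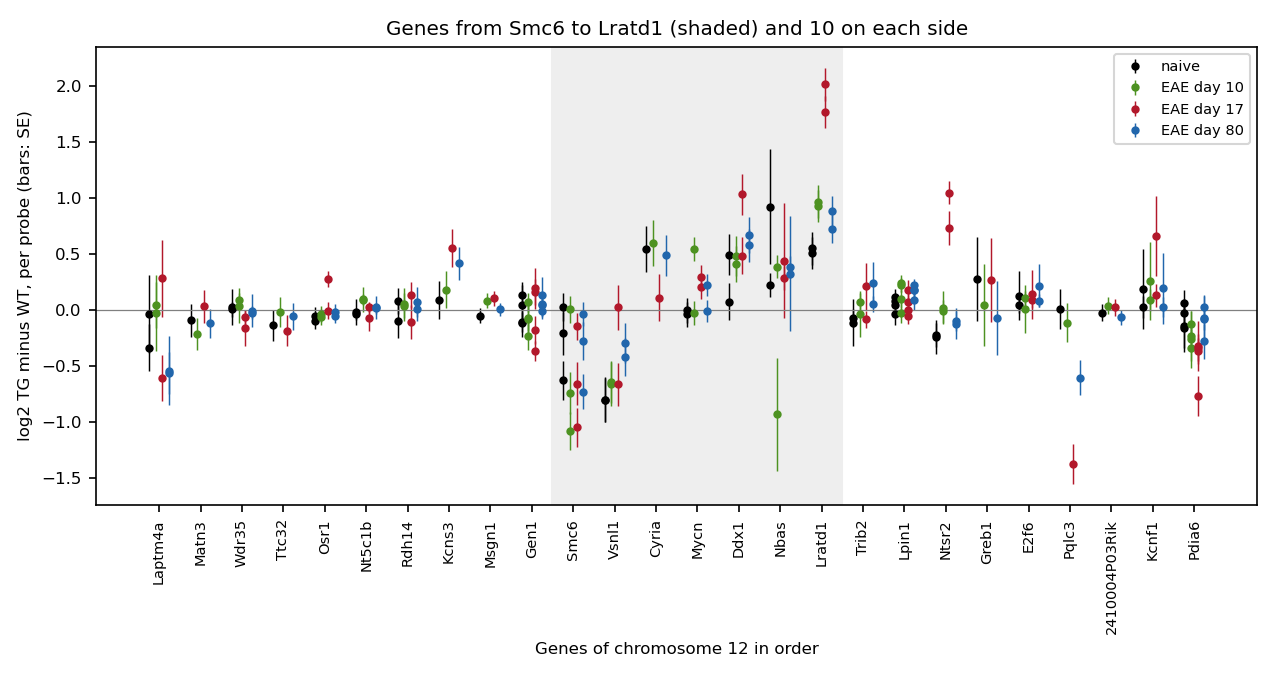
Fitted TG minus WT difference (y axis, log2, with SE bars) for each probe of genes from Smc6 to Lratd1 on chromosome 12 (shaded) and of the measured genes among the 10 on each side, in gene order, at naive cord and 3 EAE times. Lratd1 lies above 0 and 2 of 3 Smc6 probes lie below 0 at all 4 times, and the naive values of flanking genes lie between -0.34 and 0.28.

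Other genes singled out by size or p were scattered. Zkscan3, a zinc finger repressor of autophagy genes, had the smallest p of all probes (-0.42, interval -0.55 to -0.29, adjusted p = 0.356) and was lower on each array after the dye effect, at -0.34, -0.44 and -0.50. Setdb1, a histone H3 lysine methyltransferase, was at 0.76 (0.43 to 1.08), with 1.46, 0.35 and 0.65. The other highest were Abat (0.98), Gsc (0.80), Acbd5 (0.74) and Rbm26 (0.68), and the other lowest Olfml2a (-0.55), Id4 (-0.47) and Gpr17 (-0.45), the last by a probe other than its most precise one, which gave -0.05. None of these passed adjustment over all probes.

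The near-zero values in naive cord were set against the same contrast in EAE. At 10 days 0 probes differed from the naive contrast, with 12 (0.0274%) called between TG and WT at that time. At 17 days the TG minus WT difference departed from that in naive cord for 2988 probes (6.82%), of which 889 were higher and 2099 lower, and at 80 days for 166 (0.379%). Macrophage genes had a median of 0.03 in naive cord and -1.56 at 17 days, where 31 of 38 were lower than the naive contrast, beside 4.79% of all probes. The median of MHC class I genes went from 0.06 to -1.61, with 15 of 20 lower. Ccl5, a T cell chemoattractant, was at -0.05 (-0.89 to 0.79) in naive cord and at -3.12 at 17 days (difference of the contrasts -3.06, adjusted p = 0.00277). Cholesterol synthesis genes went from -0.01 to 0.42 at 80 days, with 5 of 20 higher than the naive contrast, beside 0.0206% of all probes.

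**Figure D5:**
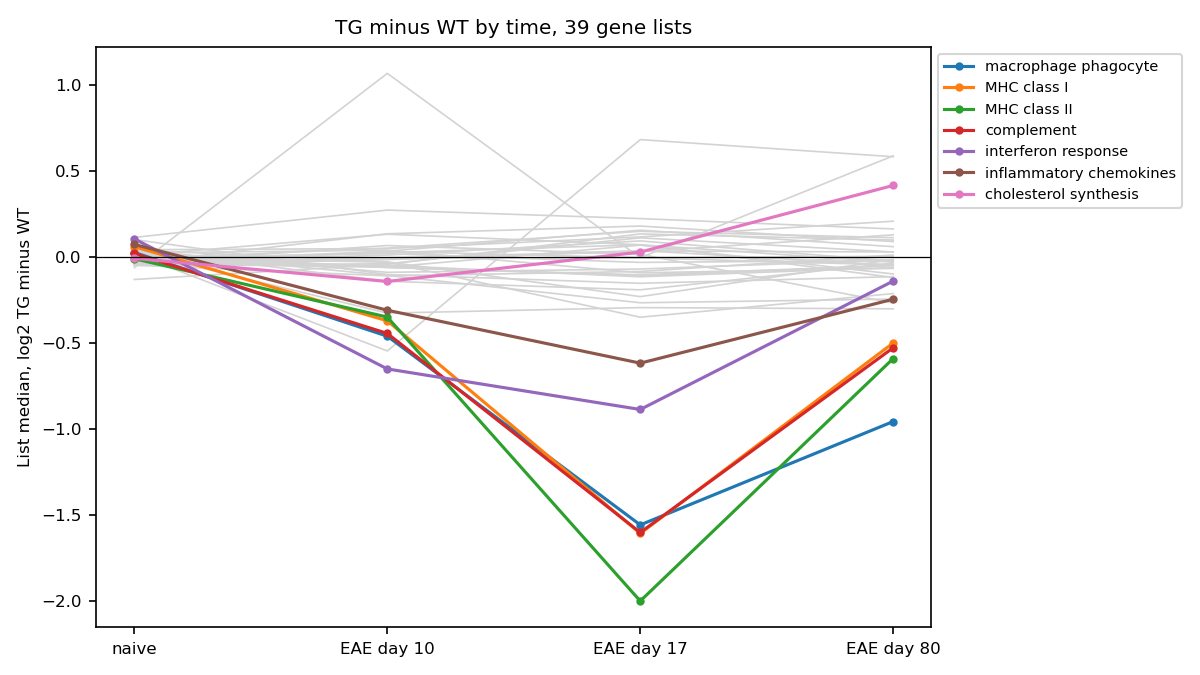
Median TG minus WT difference (y axis, log2) of 39 gene lists in naive cord and at 3 EAE times, with 7 lists in colour and the others in grey. All lists start between -0.13 and 0.11 in naive cord, and MHC class I and macrophage genes reach -1.61 and -1.56 at day 17.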

How the data were processed

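Per the series' design text, the authors normalized each two-colour array by global loess and between arrays by quantiles in limma, and deposited 1 log ratio per probe, taken here as log2. The file held 44290 probes, of which 32042 had 1 gene name in the platform annotation, and the 43791 with a value on at least 2 naive and 10 of all 20 arrays were tested. Ratios were turned to Cy5 over Cy3 and fitted in limma 3.58.1 (R 4.3.3) with group effects and 1 dye effect per probe, 13 residual degrees of freedom, and a correlation for arrays sharing an animal (estimated at 0). Calls needed a Benjamini-Hochberg adjusted p under 0.05. The fit was tested on simulated data in which all arrays of a probe had the same noise. Fitted weights of the real arrays ran from 0.0389 to 9.56, and the simulation did not cover such unequal arrays.

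The members and gene lists were chosen with earlier results of these data known. Genes were named by rule: the construct's genes, the 10 highest and 10 lowest with 1 sign on all arrays and an unadjusted p under 0.05, each list's extremes, its most precise member and its first 4, the strongest dye effects, and leading differences from naive. Genes of the chromosome 12 region, and others given to illustrate a list, were chosen after their values were seen. A gene is given by its most precise probe. Alternatives covered the dye effect, the direction, array weights, scaling, the arrays fitted and each left-out pair of animals. For arrays, their number limits the precision.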

Additional observations from a re-analysis of the deposited data

Results flagged for a closer look

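The TG minus WT difference at 17 days of EAE differed from that in naive cord for 2988 probes, and at 80 days for 166 (limma interaction contrasts, adjusted p under 0.05). The 5 named genes with the smallest p at 17 days all went lower than the naive contrast: Rnf149 by -1.56, the chitinase-like Chil4 by -3.68, the receptor Notch2 by -1.27, the antigen-presenting Cd1d1 by -1.75 and Nhlrc3 by -0.96 on the log2 scale. In naive cord these genes were between -0.11 and 0.18. At 80 days the leading genes were Gpnmb by -4.25, the growth factor Igf1 by -1.07, the lysosomal protease Ctsd by -2.51, Rpp25l by -1.70 and the collagen Col1a2 by -1.22, with naive differences from -0.05 to 0.23.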

How the results depend on the processing

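The count of 0 called probes in naive cord was also 0 without a dye effect, with a separate dye effect, with the naive arrays alone and no dye effect, under scaling or centring, per gene and without any 1 naive pair. It rose to 126 with the naive arrays alone, 251 with array weights, 3808 read as Cy5 over Cy3, and 19917 in that reading with the naive arrays alone, an alternative chosen after seeing the data. It was 0 under 4 other alternatives chosen after seeing the data: probes with 1 gene name, no 10 dpi arrays, no 17 dpi arrays, and naive and 80 dpi arrays only. Intervals within 1 numbered 18505 per gene, where fewer features were tested. Probes that differed from the naive contrast at 10 days numbered 6 with weights and 1004 read as Cy5 over Cy3. At 17 days they numbered 1051 without a dye effect, 12857 with weights, 0 read as Cy5 over Cy3, 1478 after scaling, and 329 to 2651 without 1 naive pair (the fewest without pair 1; 1122 without pair 3). At 80 days they numbered 89, 7902 and 0 under the first 3 of these, and 11 to 156 without 1 naive pair (the fewest without pair 3; 34 without pair 1). Leaving out a pair removed every array that held either of its animals. For pair 1 these included the arrays joining naive to 17-day cords, and for pair 3 those joining naive to 80-day cords. The causes were not tested. List medians over 0.2 in size numbered 7 read as Cy5 over Cy3, and 0 to 1 without 1 naive pair.

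Correlations of arrays 1 and 2, 1 and 3, and 2 and 3 were -0.61, 0.68 and -0.68 with a dye effect from 17 arrays, -0.70, 0.77 and -0.75 with none, and 0.70, 0.77 and 0.75 read as Cy5 over Cy3. In that last reading Il1a (-0.50), Sox8 (0.36), Rpl4 (-0.72) and Gpc4 (0.56) were called with the opposite sign, as was Srp54a (0.75) with the naive arrays alone. Read as Cy5 over Cy3 with the naive arrays alone, 51 of 286 named genes and probes were called with the opposite sign. No paired analysis was possible because the replicate numbers only name arrays within a group. The TG and WT animals of an array are paired by the ratio itself, and animals on several arrays entered through the common correlation, estimated at 0.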
